A study of Mus musculus with 19 samples.

Results

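The 10 genes described here encode accessory subunits of Polycomb repressive complex 2 (PRC2: Jarid2, Mtf2, Phf1 and Phf19) and subunits of Polycomb repressive complex 1 (PRC1: Cbx2, Cbx7, Cbx8, Bmi1, Ring1 and Kdm2b). They were taken by symbol from the RefSeq expression tables, which held all 10 as 19 transcripts among 23337 symbols and 30455 transcripts. The study asked how closely cystic embryoid bodies (EBs), fluid-filled structures grown from mouse embryonic stem (ES) cells without LIF, resemble the yolk sac endoderm (ysE). RNA-seq covered 11 libraries in 5 groups.

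The groups were ysE at embryonic stage E12.5 (1 library) and E9.25 (2 libraries, A and B), visceral yolk sac (VYS) mesoderm at E9.25 (2), liver at E12.5 (2), all from unmodified FVB/N mice, and cystic EBs (4). The EBs came from ES cell clones A9 (XY; libraries A) and JN (XX; libraries B), each of a C57BL/6 and 129 cross, at days 10 and 15. Every tissue sample pooled a whole litter, the layers had been parted after dispase treatment, the mesoderm kept its vessels and basement membrane, and each EB line was 1 clone. Library protocol followed the groups in part, with ScriptSeq for liver and clone A9, dUTP for clone JN and both E9.25 tissues, and a non-stranded protocol for E12.5 ysE alone. Protocol and tissue therefore cannot be told apart for E12.5 ysE, nor protocol and clone within the EBs. Fits within dUTP or ScriptSeq libraries alone hold EBs of only clone JN or only clone A9.

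Polycomb complexes keep developmental genes repressed. PRC2 methylates lysine 27 of histone H3, and its accessory subunits help to bring it to unmethylated CpG-rich DNA. Canonical PRC1 reads that mark through a CBX chromodomain protein, while variant PRC1 reaches CpG islands without a CBX protein, one form of it through the CxxC zinc finger of KDM2B. RING1 and its paralogue RNF2 are the ligases that put ubiquitin on histone H2A, each paired with 1 PCGF protein such as BMI1. Subunit exchange among CBX and among PCGF paralogues is a known feature of ES cell differentiation.

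Total counts ran from 40453779 to 169981821 per library. Summed over 7 markers of pluripotent cells, RPKM lay at 107 to 373 in the EBs and at 0.07 to 6.42 in all other libraries, and summed over 10 markers of ysE it lay at 191 to 1520 in the EBs against 44900 in E12.5 ysE and 11800 to 13400 in E9.25 ysE, and at 1310 to 2310 in mesoderm and 1880 to 3370 in liver. Summed erythroid markers (9 genes) lay at 36200 to 46000 in mesoderm and 2280 to 3340 in liver, where Cbx7 was low (and Rnf2 in liver), against 237 to 1070 in ysE and 12.4 to 135 in the EBs. Summed proliferation markers (8 genes) lay at 365 to 579 in the EBs, 774 to 1020 in liver, 724 to 756 in mesoderm, 500 to 526 in E9.25 ysE and 347 in E12.5 ysE. Summed mesoderm and vessel markers (9 genes) lay at 1370 to 1500 in mesoderm, 52.6 to 240 in the EBs and 27.2 to 154 in ysE and liver. Summed cardiac markers (5 genes) lay at 11.1 to 263 in the EBs, 2.92 to 11.6 in mesoderm and liver and 0.084 to 0.256 in ysE. Sums of hepatocyte, neural and leukocyte markers also differed between groups. The part of these other cells and of cell division in the results was not tested. In these bulk samples, fewer cells of a type and less RNA per cell cannot be told apart. Levels below are RPKM (reads scaled by transcript length and library size, comparable between genes), while changes are log2 fold changes with their standard error (SE) and adjusted p from edgeR's quasi-likelihood test on counts with TMM scaling, called at a false discovery rate (FDR) of 5%. TMM factors lay between 0.766 and 1.21, so that a fold change can differ from a ratio of RPKM. A p-value measures only the spread between these libraries. The EB libraries were counted as independent, although each clone was sampled on both days. No fit that left out a library could drop the single E12.5 ysE library from its own comparisons.

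**Figure D1:**
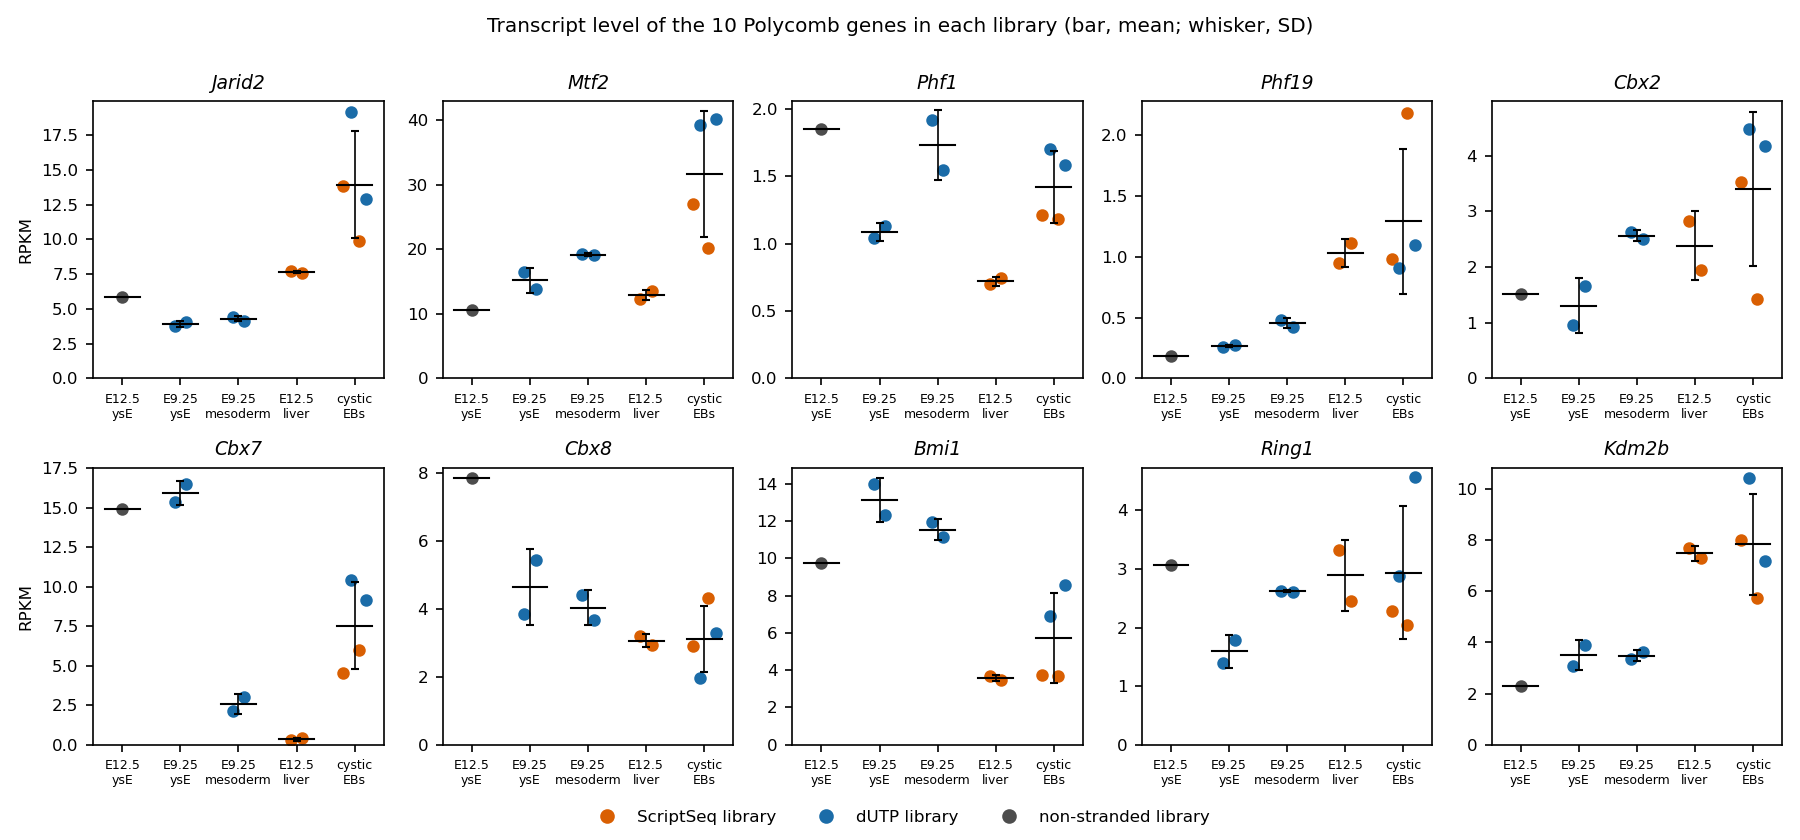
RPKM of the main transcript of each gene (y axis, linear, from 0) in the 5 groups (x axis), 1 point per library coloured by protocol, with the group mean (bar) and SD (whisker). Cbx7 ran from 0.278 in liver A to 16.5 in E9.25 ysE B, and the liver and clone A9 points of Bmi1 lie between 3.48 and 3.72.

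Jarid2 (mm10, chr13:44730774-44921643), which encodes a DNA-binding PRC2 cofactor, was highest in cystic EBs. At days 10 and 15 its RPKM was 13.8 and 9.90 for clone A9, and 19.1 and 12.9 for clone JN. Liver held 7.70 and 7.61 RPKM, the E12.5 ysE 5.84, mesoderm 4.45 and 4.16, and the E9.25 ysE 3.77 and 4.04. No EB library overlapped any tissue, and by RPKM the tissues did not overlap each other, although E9.25 ysE and mesoderm were apart by a ratio of only 1.1. On TMM-scaled CPM the order of these tissues turned, with E9.25 ysE at 31.45 and 33.39 and mesoderm at 28.93 and 28.27. Relative to E9.25 ysE the EBs were higher by 1.39 (SE 0.26, adjusted p = 0.00188), and relative to mesoderm by 1.57 (SE 0.26, adjusted p = 0.00255). Both calls held in each fit that left out 1 library and under each other setting. Against E12.5 ysE the log2 fold change was 0.89 (SE 0.33, adjusted p = 0.0565) and against liver 0.53 (SE 0.24, adjusted p = 0.102), neither of which was called, although the first was called without EB d10 B, d15 A or d15 B (adjusted p = 0.0413, 0.0211 and 0.0451) and the second without d15 A (adjusted p = 0.0368). The first was also called by DESeq2 (adjusted p = 0.0475), with 1 transcript per gene (0.0473) and by limma on RPKM (0.0176), and the second by limma (0.0227). All 3 Jarid2 transcripts carried nearly the same counts, with ratios to the main one varying at most 1.05-fold over the libraries.

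Mtf2 (chr5:108065660-108109219) encodes one of 3 Polycomb-like proteins, which bind unmethylated CpG-rich DNA and recruit PRC2, and was the most abundant of the 10 genes in the EBs. Clone A9 had 27.02 and 20.2 RPKM and clone JN 39.2 and 40.2, at days 10 and 15. The tissues lay lower, with mesoderm at 19.3 and 19.1, the E9.25 ysE at 16.5 and 13.9, liver at 12.4 and 13.5 and the E12.5 ysE at 10.6. The highest tissue library (19.3) and the lowest EB library (20.2) were close. On TMM-scaled CPM EBs and tissues overlapped, with EB d15 A at 101.3, E9.25 ysE A at 108.2 and mesoderm B at 101.7. EBs were higher than E12.5 ysE by 1.20 (SE 0.37, adjusted p = 0.0281) and than liver by 0.95 (SE 0.27, adjusted p = 0.0186), but the latter was lost without either liver library (adjusted p = 0.105 without A and 0.0886 without B) and within ScriptSeq libraries alone (0.56, adjusted p = 0.0599). Against E9.25 ysE (0.60, SE 0.27, adjusted p = 0.0872) and mesoderm (0.58, SE 0.27, adjusted p = 0.127) Mtf2 was not called (the first was by DESeq2, adjusted p = 0.0377, and limma on RPKM, 0.0185). Within dUTP libraries alone, whose EBs were only clone JN, both differences were called (0.96, adjusted p = 0.00294, and 0.92, adjusted p = 0.00637). Both were also called without EB d15 A (adjusted p = 0.015 and 0.0311).

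The promoter table of RefSeq (build GRCm38.p6, the reference of mm10) lists a first and a second start of Mtf2, chr5:108065674 and chr5:108078165. They are shown because the VYS at E12.5 had an H3K4me3 peak, the histone mark of active promoters, at the first and none at the second. Each run spans 250 bases before to 50 after the start on the plus strand, with each CG dinucleotide (searched as CG, which reads the same on both strands) in capitals. The first holds 30, a number that 11.7% of all 32851 promoters in the table reach, and the second holds 2, reached by 85.9%.
Mtf2 first start, chr5:108065424-108065723: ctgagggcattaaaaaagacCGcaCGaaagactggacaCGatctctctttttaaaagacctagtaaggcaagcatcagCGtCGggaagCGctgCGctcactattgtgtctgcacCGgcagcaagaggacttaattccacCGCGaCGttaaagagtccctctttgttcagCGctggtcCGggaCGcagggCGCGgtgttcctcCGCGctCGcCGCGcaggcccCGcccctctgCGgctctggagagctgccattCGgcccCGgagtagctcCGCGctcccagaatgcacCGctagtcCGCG
Mtf2 second start, chr5:108077915-108078214: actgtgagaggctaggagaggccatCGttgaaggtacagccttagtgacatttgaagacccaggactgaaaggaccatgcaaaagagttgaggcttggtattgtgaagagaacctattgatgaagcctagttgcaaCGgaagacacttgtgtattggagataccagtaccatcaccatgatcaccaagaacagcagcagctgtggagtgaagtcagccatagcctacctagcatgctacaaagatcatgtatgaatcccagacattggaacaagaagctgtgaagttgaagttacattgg

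Phf1 (chr17:26933127-26937908) encodes another Polycomb-like protein and was low everywhere. The E12.5 ysE had 1.85 RPKM, mesoderm 1.92 and 1.55, EBs 1.21 and 1.71 at day 10 (A, then B) and 1.18 and 1.58 at day 15, the E9.25 ysE 1.04 and 1.13, and liver 0.698 and 0.744. Its first 3 groups in that order overlapped, and liver lay below all other libraries. In liver it was lower than in E12.5 ysE, with a log2 fold change of -1.40 (SE 0.38, adjusted p = 0.0134), a call lost without liver A (adjusted p = 0.0508). None of the 4 EB comparisons with tissues was called by edgeR, while DESeq2 called Phf1 lower than in E12.5 ysE (-0.82, adjusted p = 0.0237) and higher than in liver (0.58, adjusted p = 0.0413), the latter also by limma on RPKM (0.49, adjusted p = 0.0206). By edgeR the nearest to a call was 0.65 (SE 0.28, adjusted p = 0.0885) against liver. Next came -0.75 (SE 0.34, adjusted p = 0.105) against E12.5 ysE.

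Phf19 (chr2:34893752-34914353), the third Polycomb-like gene, split the groups more sharply. EBs held 0.984 and 0.910 RPKM at day 10 (A, then B, as in all lists that follow) and 2.17 and 1.09 at day 15, and liver 0.948 and 1.11. Mesoderm held 0.482 and 0.423, E9.25 ysE 0.260 and 0.274 and E12.5 ysE 0.180 RPKM, the last from 29 reads. EBs and liver overlapped, and every one of their libraries lay above every yolk sac library. EBs were higher than E9.25 ysE by 1.84 (SE 0.44, adjusted p = 0.00747), than E12.5 ysE by 2.49 (SE 0.64, adjusted p = 0.0131) and than mesoderm by 1.40 (SE 0.43, adjusted p = 0.0377). Liver was higher than E12.5 ysE by 2.48 (SE 0.67, adjusted p = 0.0133), a call that held in each fit leaving out a library. The call against E9.25 ysE was lost without either of its libraries (adjusted p = 0.0534 without A and 0.0514 without B). The call against mesoderm was lost in 6 of 11 such fits, without any 1 of the E9.25 ysE, mesoderm or liver libraries (adjusted p up to 0.202). Library d15 A (2.17) stood apart from the other 3 EB libraries. Without it the log2 fold change against E9.25 ysE was 1.48. Within each library Mtf2 held 84.0% to 93.8% of the RPKM of the 3 Polycomb-like genes, so that it was the main gene of this family in every library.

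The Phf19 promoter (RefSeq, GRCm38.p6, minus strand, 300 bases as above, CG in capitals) is shown because its CpGs were covered by the bisulfite reads described further on. It holds 38 CG, a number reached by 4.95% of promoters.
Phf19 start, chr2:34913927-34914226: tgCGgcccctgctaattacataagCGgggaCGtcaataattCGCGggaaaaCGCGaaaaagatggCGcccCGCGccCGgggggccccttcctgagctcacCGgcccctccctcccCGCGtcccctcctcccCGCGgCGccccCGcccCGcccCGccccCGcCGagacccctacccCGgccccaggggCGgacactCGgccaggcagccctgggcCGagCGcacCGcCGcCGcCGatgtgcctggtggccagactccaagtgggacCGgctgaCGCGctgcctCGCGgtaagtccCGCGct

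Among the PRC1 chromodomain genes, Cbx7 (chr15:79915804-79971143) varied most, with group means 47.1-fold apart. The ysE held 14.9 (E12.5), 15.4 and 16.5 RPKM (E9.25). At days 10 and 15, EBs of A9 held 4.51 and 5.97 and those of JN 10.5 and 9.14. Mesoderm held 2.14 and 3.03 and liver 0.278 and 0.399 RPKM, from 73 and 88 reads. No neighbours in this order overlapped, but the ysE stages were only 1.07-fold apart and their difference was not called (-0.18, SE 0.48, adjusted p = 0.852). E9.25 ysE exceeded mesoderm by 2.94 (SE 0.41, adjusted p = 0.000862). Liver was below E12.5 ysE by a log2 fold change of -5.50 (SE 0.50, adjusted p = 6.84e-05), a fold of 45.2. EBs were above liver by 4.14 (SE 0.43, adjusted p = 0.000107) and above mesoderm by 1.40 (SE 0.36, adjusted p = 0.0178), and below E9.25 ysE (-1.53, SE 0.32, adjusted p = 0.00367) and E12.5 ysE (-1.35, SE 0.40, adjusted p = 0.0233). The call against mesoderm was lost without either mesoderm library (adjusted p = 0.154 without A and 0.0632 without B), and that against E12.5 ysE on the RPKM scale (limma, -0.96, adjusted p = 0.0762). The 4 other Cbx7 calls held in each fit and setting tried. The summed ysE markers given above were likewise lower in mesoderm, liver and EBs than in ysE, and their part in the Cbx7 differences was not tested.

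The promoter of Cbx7 in the RefSeq table (GRCm38.p6, minus strand, 300 bases as above) is shown because this gene had the widest range here. It is the 1 start in the table, and lies 38.5 kb inside the annotated span of the gene. It holds 33 CG dinucleotides, in capitals, a number reached by 8.56% of promoters.
Cbx7 start, chr15:79932597-79932896: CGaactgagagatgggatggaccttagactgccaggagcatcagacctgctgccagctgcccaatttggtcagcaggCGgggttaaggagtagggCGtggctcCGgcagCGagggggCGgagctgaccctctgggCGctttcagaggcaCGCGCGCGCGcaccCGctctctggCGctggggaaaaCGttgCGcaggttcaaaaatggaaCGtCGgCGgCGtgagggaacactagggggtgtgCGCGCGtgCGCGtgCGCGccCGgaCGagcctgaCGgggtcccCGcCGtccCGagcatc

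Cbx8 (chr11:119036303-119040913) and Cbx2 (chr11:119023019-119031275) encode other chromodomain subunits of canonical PRC1. Cbx8 had 7.86 RPKM at E12.5 and 3.86 and 5.44 at E9.25 for the ysE. Mesoderm had 4.39 and 3.68, liver 3.20 and 2.92, and EBs 2.90 and 1.96 at day 10 and 4.33 and 3.28 at day 15. E12.5 ysE stood above all others, and the remaining 4 groups overlapped their neighbours. EBs were lower than E12.5 ysE (-1.70, SE 0.39, adjusted p = 0.00774), a call that held throughout, and than E9.25 ysE (-1.02, SE 0.32, adjusted p = 0.0254). The latter was lost without EB d10 A (adjusted p = 0.0505), ysE A (0.0579) or ysE B (-0.72, adjusted p = 0.219), on the RPKM scale (-0.47, adjusted p = 0.144) and with only both groups in the fit (adjusted p = 0.0606). Liver was below E12.5 ysE (-1.39, SE 0.46, adjusted p = 0.0314), a call lost without liver A (adjusted p = 0.08) or B (0.106).

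Cbx2 showed no difference called by edgeR with all groups and libraries in the fit. EBs held 3.53, 4.47, 1.42 and 4.18 RPKM, mesoderm 2.63 and 2.50, liver 2.83 and 1.94, the E12.5 ysE 1.52, and the E9.25 ysE 0.954 and 1.66. By RPKM EB d15 A (1.42) lay among the ysE libraries, and the other 3 EB libraries lay above every tissue. On TMM-scaled CPM liver A (13.67) lay above EB d10 A (13.23). Against E9.25 ysE the EBs had a log2 fold change of 0.92 (SE 0.44, adjusted p = 0.105), which passed the threshold without d15 A (1.23, adjusted p = 0.00943), under DESeq2 (1.02, adjusted p = 0.0413) and within dUTP libraries alone (1.31, adjusted p = 0.00628).

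As a share of the summed RPKM of 4 CBX genes (the 3 above with Cbx6), a value that does not depend on library scaling, Cbx7 made up 75.2% and 68.6% of the E9.25 ysE and 59.2% of the E12.5 ysE total. It made up 31.2% to 49.97% in the EBs, 17.7% and 24.1% in mesoderm and 2.39% and 4.21% in liver. The shares of the 5 groups did not overlap. Cbx2 held 4.66% to 6.92% in the 3 ysE libraries, 19.9% to 24.3% in mesoderm and liver, and 9.04% to 24.4% in the EBs. Cbx8 held 18.9% to 36.4% over all tissue libraries and 9.36% to 27.5% in the EBs. Cbx6 was the largest of the 4 in liver (45.7% and 44.4%), and held 16.8% to 25.4% in the EBs against 1.31% to 3.49% in ysE. The EB makeup thus lay between that of ysE and those of mesoderm and liver for Cbx7, and outside the ysE range for each of Cbx2, Cbx6 and Cbx7. These groupings were formed after values had been seen and carry no test.

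**Figure D2:**
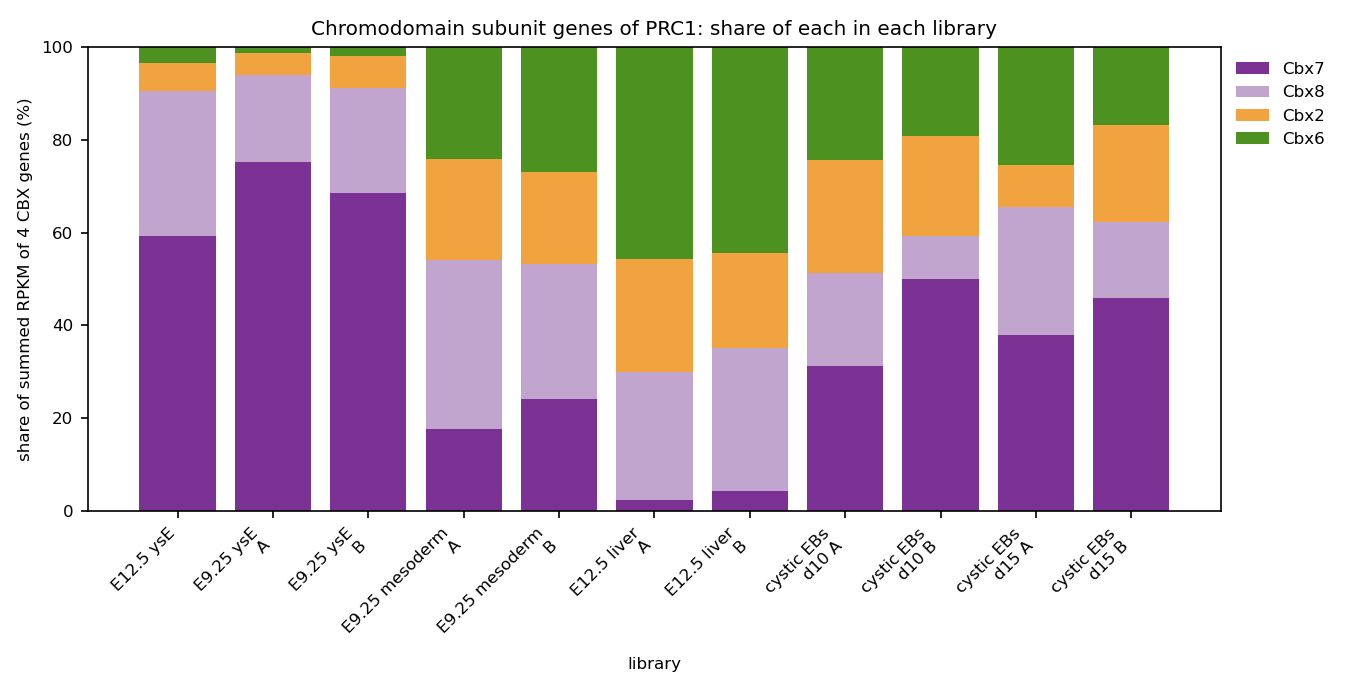
Stacked bars give each of 4 CBX genes as a percentage of their summed RPKM (y axis, 0 to 100) in each library (x axis). Cbx7 takes 59.2% to 75.2% in ysE, 31.2% to 49.97% in EBs and at most 4.21% in liver, where Cbx6 is the largest part.

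Bmi1 (chr2:18677018-18686629) encodes the PCGF protein of one canonical PRC1. The E9.25 ysE had 14.0 and 12.3 RPKM, mesoderm 11.9 and 11.1, and the E12.5 ysE 9.73. EBs of clone JN had 6.91 and 8.56, those of A9 3.72 and 3.67, and liver 3.69 and 3.48. All yolk sac libraries lay above all EB libraries. By RPKM the A9 libraries matched the level of liver, which shares their ScriptSeq protocol, and the part of protocol was not tested. On TMM-scaled CPM A9 (13.4 and 14.05) lay below liver (17.1 and 15.7). EBs were lower than E9.25 ysE (-1.66, SE 0.31, adjusted p = 0.00197), mesoderm (-1.15, SE 0.31, adjusted p = 0.0225) and E12.5 ysE (-1.15, SE 0.39, adjusted p = 0.0404), and liver was lower than E12.5 ysE (-1.47, SE 0.44, adjusted p = 0.0209). The first held in each fit leaving out a library and within dUTP libraries alone. The second was lost without mesoderm A (adjusted p = 0.117) or B (0.109), the third in 8 of 10 fits leaving out EB d10 A, d15 A or any E9.25 ysE, mesoderm or liver library (adjusted p up to 0.0657), and the fourth without liver A (0.0665) or B (0.0813). Clone JN was above A9 by 0.99 (SE 0.22, adjusted p = 0.0379), which was lost without any 1 of the 4 EB libraries (adjusted p 0.0954 to 0.124). Of the summed RPKM of 6 PCGF genes Bmi1 held 24.1% and 22.4% in mesoderm, 14.2% to 17.4% over the 3 ysE libraries, 11.2% and 9.99% in liver, and 6.63% to 12.1% in the EBs.

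Ring1 (chr17:34020792-34024680), the less abundant of both ligase genes, was not called by edgeR in any comparison unless only the groups compared were in the fit. The E12.5 ysE had 3.07 RPKM, EBs 2.28, 2.88, 2.04 and 4.57, liver 3.32 and 2.46, mesoderm 2.63 and 2.61, and the E9.25 ysE 1.40 and 1.80. By RPKM the first 4 of these groups overlapped, and E9.25 ysE lay below all other libraries. On TMM-scaled CPM this separation was absent, with E9.25 ysE at 3.96 and 5.03 and the EBs of clone A9 at 4.65 and 4.42. The log2 fold change of E12.5 over E9.25 ysE was 0.86 (SE 0.46, adjusted p = 0.281). Against its paralogue Rnf2 it held 4.85% to 7.21% of their summed RPKM in the EBs, 3.59% to 8.92% in the yolk sac libraries and 28.0% and 34.8% in liver. In liver Rnf2 was at 6.23 to 6.33 RPKM, against at least 30.8 in each other library, while Ring1 stayed within the range of the other groups.

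Kdm2b (chr5:122870664-122989270), the CpG-binding subunit of a variant PRC1, was high in EBs and liver. The main transcript, NM_001003953, had 7.99, 10.4, 5.72 and 7.20 RPKM in EBs, 7.68 and 7.28 in liver, 3.09 and 3.91 at E9.25 and 2.29 at E12.5 in the ysE, and 3.33 and 3.63 in mesoderm. EBs overlapped liver, E9.25 ysE overlapped mesoderm, those pairs were apart from each other, and E12.5 ysE was lowest. EBs were higher than E12.5 ysE by 1.41 (SE 0.35, adjusted p = 0.0104), than mesoderm by 1.04 (SE 0.25, adjusted p = 0.0147) and than E9.25 ysE by 0.71 (SE 0.25, adjusted p = 0.0375). Liver was higher than E12.5 ysE by 1.68 (SE 0.37, adjusted p = 0.00525), which held throughout. The mesoderm call was lost without mesoderm A (adjusted p = 0.126) or B (0.0857). The E9.25 ysE call was lost in 7 of 11 fits, leaving out EB d10 A or any tissue library but E12.5 ysE (adjusted p up to 0.189), and with only both groups in the fit (adjusted p = 0.0742).

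The Kdm2b transcripts NM_001003953 and NM_013910 did not move together. Counts of NM_001005866 lay near those of NM_001003953, at 2383 against 2610 in EB d10 A and 505 against 509 in E12.5 ysE. In EBs against E9.25 ysE, however, NM_001005866 was not called (0.65, SE 0.26, adjusted p = 0.0595), whereas NM_001003953 was (0.71, adjusted p = 0.0375). Against mesoderm and E12.5 ysE both were called higher in EBs. The gene is known for a long form with a demethylase (JmjC) domain and a short form without it. Counts over deposited RPKM give NM_013910 a length of 68.2% of NM_001003953. In EBs the longer transcript carried 1.55 and 1.71 times the count of the shorter at day 10, and 1.46 and 1.44 times at day 15. The E12.5 ysE ratio was 1.07, those of the E9.25 ysE 1.01 and 1.04, of mesoderm 1.13 and 1.10, and of liver 1.07 and 1.06. All 4 EB libraries, of both clones and protocols, lay above all 7 tissue libraries. This ratio is taken within a library, so scaling does not enter it, and it was noticed after values had been seen and has no test. NM_013910 on its own stood at 7.55, 8.93, 5.74 and 7.33 RPKM in the EBs and at 10.5 and 10.1 in liver. It was lower in EBs than in liver (-0.81, SE 0.20, adjusted p = 0.00981), where the longer one was not called (-0.27, SE 0.24, adjusted p = 0.383). Against E9.25 ysE it was not called (0.11, SE 0.21, adjusted p = 0.667), nor against mesoderm (0.55, SE 0.21, adjusted p = 0.0771), and against E12.5 ysE it was higher by 0.87 (SE 0.29, adjusted p = 0.0362). How reads in shared exons were counted is not given in the sources used here, and the near equal counts of the Jarid2 transcripts show only that rows of a gene can share most of their reads.

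**Figure D3:**
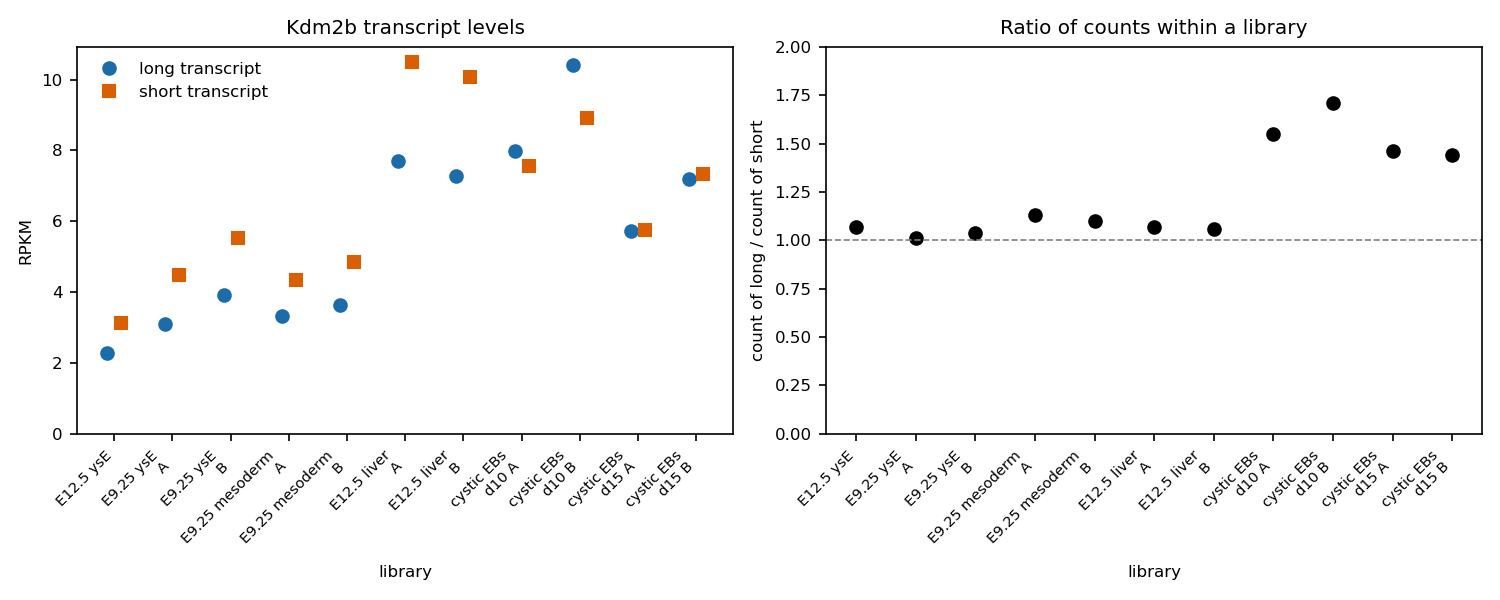
Left, RPKM of the long (circles) and short (squares) Kdm2b transcript in each library. Right, count of the long over that of the short transcript, with a dashed line at 1. The ratio is 1.44 to 1.71 in the 4 EB libraries and 1.01 to 1.13 in the 7 tissue libraries.

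Starts of Kdm2b in the RefSeq table fall in clusters 88.7 kb apart on the minus strand, and the table does not pair them with transcripts. Both carried an H3K4me3 peak in the VYS. One of each cluster is shown (GRCm38.p6), with CG in capitals. The upstream one holds 28, reached by 14.2% of promoters, and the downstream one 49, reached by 1.02%.
Kdm2b upstream start, chr5:122989050-122989349: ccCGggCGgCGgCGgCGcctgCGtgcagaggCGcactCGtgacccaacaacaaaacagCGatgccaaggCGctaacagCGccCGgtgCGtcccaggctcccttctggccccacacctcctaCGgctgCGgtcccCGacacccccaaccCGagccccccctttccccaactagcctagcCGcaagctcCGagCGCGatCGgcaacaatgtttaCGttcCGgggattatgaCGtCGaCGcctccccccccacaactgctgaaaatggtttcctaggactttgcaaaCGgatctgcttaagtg
Kdm2b downstream start, chr5:122900301-122900600: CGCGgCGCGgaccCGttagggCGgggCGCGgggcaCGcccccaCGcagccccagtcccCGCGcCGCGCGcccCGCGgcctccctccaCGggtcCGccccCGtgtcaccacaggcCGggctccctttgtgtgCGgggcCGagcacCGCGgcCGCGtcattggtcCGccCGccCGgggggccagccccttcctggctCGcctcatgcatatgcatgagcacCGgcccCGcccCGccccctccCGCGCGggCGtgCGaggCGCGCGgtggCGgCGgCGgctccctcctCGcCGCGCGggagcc

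Counted over comparisons, EBs against E9.25 ysE gave 3 of 10 members higher (Jarid2, Phf19, Kdm2b) and 3 lower (Cbx7, Cbx8, Bmi1), beside 27.1% and 23.2% of the 24858 transcripts tested. Against E12.5 ysE 3 were higher (Mtf2, Phf19, Kdm2b) and 3 lower (Cbx7, Cbx8, Bmi1), beside 21.1% and 18.8%. These comparisons share the EB libraries, and with only the libraries compared in the fit, Cbx8 alone stayed called of the 6 against E12.5 ysE. Against liver 2 were higher and 0 lower, beside 24.6% and 20.9%, and against mesoderm 4 were higher and 1 lower, beside 13.9% and 15%. E9.25 ysE exceeded mesoderm for 1 member, Cbx7, and was lower for 0, beside 13.7% and 16.9%. Liver exceeded E12.5 ysE for 2 (Phf19, Kdm2b) and was lower for 4 (Phf1, Cbx7, Cbx8, Bmi1), beside 23.7% and 22.6%. With 10 members, 1 gene moves a share by 10 percentage points. Of 63 member tests that were not called, 18 were called under at least 1 alternative. Median log2 fold changes of the members were 0.51 against E9.25 ysE, where that of all transcripts was 0.17, 0.17 (all transcripts, 0.42) against E12.5 ysE, 0.25 (0.20) against liver and 0.43 (0.03) against mesoderm. They were 0.08 (-0.05) for E9.25 ysE over mesoderm, 0.07 (0.26) for liver over E12.5 ysE and 0.54 (0.01) for clone JN over A9. All 10 members passed the filter on low counts in both fits.

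**Figure D4:**
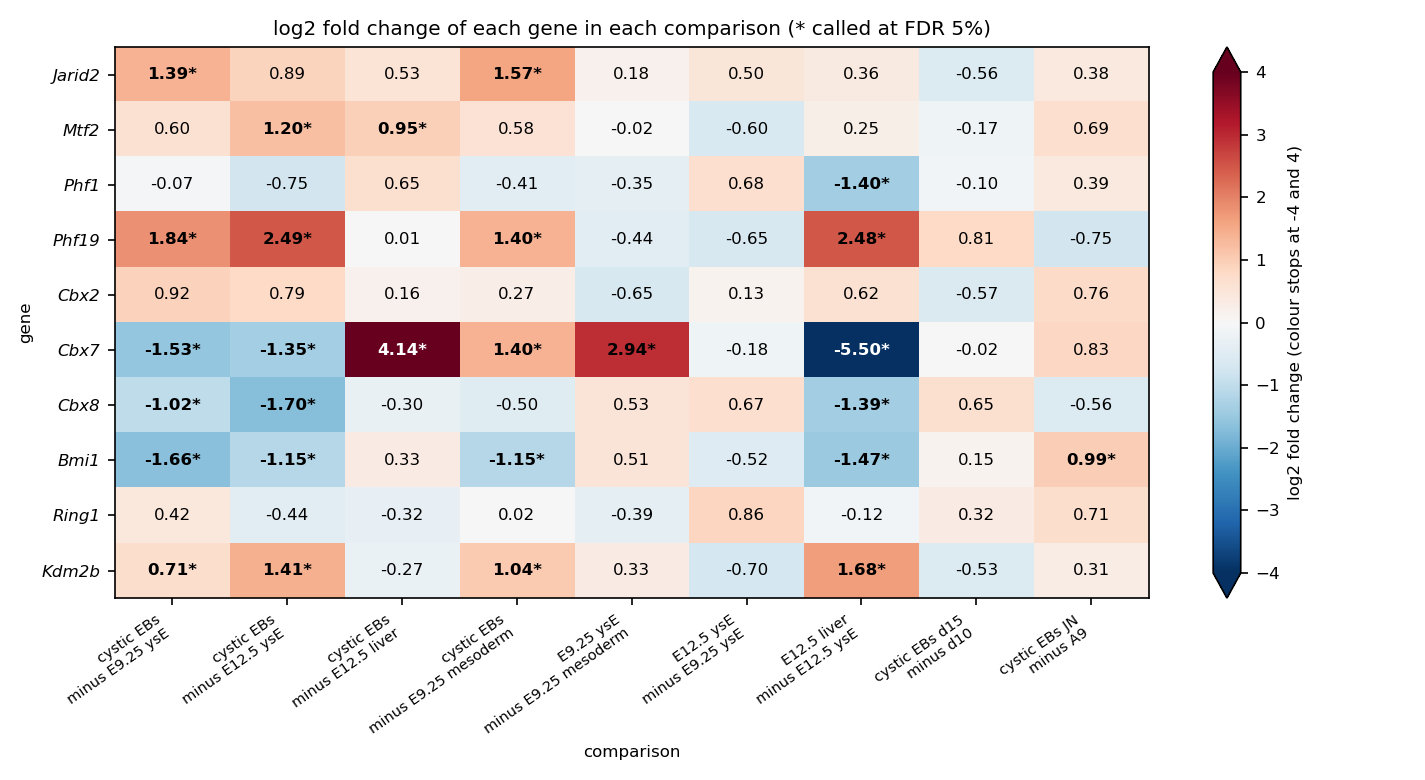
log2 fold change of each gene (rows) in each comparison (columns), first group minus second. Colour runs from -4 to 4, and bold values with an asterisk were called at FDR 5%. The values range from -5.50 for Cbx7 in liver minus E12.5 ysE to 4.14 for Cbx7 in EBs minus liver, and Cbx2 and Ring1 have none called.

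Between the ysE stages edgeR called 0 members (3.9% of transcripts higher and 4.57% lower at E12.5). An unadjusted p below 0.05 was reached by 0 members, beside 2591 transcripts higher and 3760 lower of 24858. DESeq2 and limma on RPKM also called 0 members, beside 16.2% and 8.05% of transcripts. The fit of only these 3 libraries called 5 (Jarid2, Phf1, Cbx8 and Ring1 higher and Kdm2b lower at E12.5), beside 50.2% of transcripts. The widest differences were 0.86 for Ring1 (SE 0.46) and -0.70 for Kdm2b (SE 0.35, adjusted p = 0.251). From day 10 to day 15 of EB culture edgeR called 0 members and 0 transcripts (0% in each direction), with 240 transcripts higher and 64 lower at an unadjusted p below 0.05 and 0 of the members among them. DESeq2 called 17 transcripts and 0 members. The widest member difference was 0.81 for Phf19 (SE 0.56). Between clones, Bmi1 was the 1 member called higher in JN, beside 7.9% of transcripts, and 0 were lower, beside 4.64%. The share of all transcripts called between clones fell without any 1 of the EB libraries, most without d10 B. Mtf2 (0.69, SE 0.20, adjusted p = 0.077) and Cbx7 (0.83, SE 0.27, adjusted p = 0.0901) were not called by edgeR and were by DESeq2 (adjusted p = 0.0417 and 0.0458). With day as a term in the edgeR fit, Mtf2 was called (0.70, adjusted p = 0.0443).

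The other Polycomb and Trithorax genes of 8 lists (50 genes in the table, all tested) gave the surroundings of these changes. The shares of all transcripts called, given above for each comparison, are repeated in brackets (higher, lower). Against E9.25 ysE the EBs had 15 higher and 8 lower (27.1%, 23.2%), among them Auts2 (3.60, SE 0.39), Cbx6 (2.93, SE 0.29) and the polyhomeotic gene Phc1 (2.90, SE 0.47) higher and Scml4 lower (-6.02, SE 0.49). Against E12.5 ysE 14 were higher and 5 lower (21.1%, 18.8%), against liver 13 and 12 (24.6%, 20.9%), and against mesoderm 15 and 1 (13.9%, 15%). In liver E130012A19Rik, a PRC2 accessory gene, was at 0.135 to 0.227 RPKM against 4.28 to 9.17 in the EBs (4.89, SE 0.49, adjusted p = 9.77e-05), and it had 10.8 to 13.7 in E9.25 ysE. Ezh2, the PRC2 methyltransferase, was called higher in EBs than in E9.25 ysE (1.14, SE 0.31, adjusted p = 0.0128) and lower than in liver (-1.49, SE 0.28, adjusted p = 0.00254). Of 6 PRC2 core genes, 1 was higher and 0 lower against E9.25 ysE, 2 and 2 against E12.5 ysE, 1 and 1 against liver and 3 and 0 against mesoderm. E9.25 ysE against mesoderm gave 8 higher and 7 lower genes of the lists (13.7%, 16.9%), liver against E12.5 ysE 19 and 13 (23.7%, 22.6%), and the ysE stages 0 and 1 (3.9%, 4.57%). Between EB days edgeR called 0 and 0, and between clones 4 and 3 (7.9%, 4.64%).

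Genes whose log2 CPM over the 11 libraries was most like that of the 3 most variable members were found as a description, over points that share libraries and protocols. For Cbx7 they were Fam83h (Pearson r = 0.99), Impact (0.987) and C430002E04Rik (0.985, not among the nearest with a smaller prior count). For Bmi1 they were Wbscr16 (0.991), Sla2 (0.988) and Gtpbp8 (0.98). Among the EBs all 3 of these were lower in A9, where Wbscr16 had 2.75 and 2.44 RPKM, than in JN, where it had 7.20 and 8.77. For Phf19 they were Fam155a (0.967), Drp2 (0.964) and Cmklr1 (0.963, again not with the smaller prior count), all highest in EB d15 A.

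H3K4me3 was measured once, by ChIP-seq in pooled E12.5 VYS, in which endoderm was not parted from mesoderm. All 10 members had a peak within 1 kb of at least 1 start, beside 46.4% of 27025 genes. By start site it was 11 of 12, beside 45.5% of 32812. For Cbx2, absent from the promoter table, the lower end of its annotated span stood in for the start. The peak score is that of the peak caller, and the highest at each start is given. It does not rank the strongest peaks, since 5262 of 22343 peaks (23.6%) share the value 3100 and 1.2% lie above it. Jarid2 and Mtf2 had 3100, Kdm2b 2760 and 2304 at its upstream and downstream starts, Phf1 2020, Bmi1 1973, Ring1 1360, Cbx8 1205, Cbx2 1098, Phf19 544 and Cbx7 331. The Cbx7 start of the promoter table lies 38.5 kb inside the annotated span of the gene, and at the upper end of that span, chr15:79971143, a start added after seeing the data, the peak score was 3100, the shared value that Jarid2 and Mtf2 also had, so these 3 cannot be ordered. For the other members the end of the span lay within 0.377 kb of a start in the table. With the upper 50% of peaks by score, 8 members kept one at a start in the table, beside 36.3% of all genes, and 9 at the end of the span, all but Phf19.

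CpG methylation was read by whole genome bisulfite sequencing of 2 reciprocal CAST by FVB crosses (CxF and FxC) for each of E12.5 ysE, E12.5 liver and day 15 EBs, the EBs from other clones than those of the RNA. Mean depth was 1.80 to 2.21 reads per called CpG, so that a 1 kb window to either side of a start held few reads and no test was made. Reads here are summed over the CpGs of a window, so a read that spans several CpGs counts at each of them. Intervals are 95% Wilson intervals, and the limit given for 0 methylated reads is instead 3 reads of the total. Both cover counting error only, and since they take the counts as independent they can be too narrow. The Phf19 start had 12 of 18 (66.7%, interval 43.7 to 83.7) and 5 of 7 reads (71.4%, 35.9 to 91.8) methylated in EBs, against 0 of 6 (which allows up to 50%) and 4 of 21 (19.05%, 7.67 to 40.0) in ysE. The libraries of these groups did not overlap, but within 500 bases of the start they did, with 2 of 5 and 4 of 5 reads in EBs and 0 of 6 and 2 of 3 in ysE. At the upstream Kdm2b start 0 of 16 reads (allowing up to 18.8%) and 1 of 8 were methylated in EBs, 2 of 7 (28.6%) and 2 of 20 (10.0%) in liver and 1 of 16 (6.25%) in 1 ysE library. The downstream start had 7 of 9 (77.8%, 45.3 to 93.7) in 1 EB library and 4 of 26 (15.4%, 6.15 to 33.5) in 1 liver library. Within 500 bases of the downstream start the EBs had no reads and that liver library 0 of 22, and at the upstream start 1 EB library had 0 of 11 and 1 liver library 2 of 5. At Cbx7 the EBs had 3 of 13 (23.1%) and 2 of 10, and 1 ysE library 6 of 13 (46.2%). Within 500 bases the order turned, with 2 of 12 (16.7%) and 0 of 4 in EBs and 0 of 7 in ysE. At the upper end of the Cbx7 span they were 15 of 21 (71.4%) and 4 of 13 (30.8%) in EBs and 21 of 27 (77.8%) and 0 of 10 in ysE. The liver tables used here held 0 calls on chromosome 15, where Cbx7 lies, and the 6 tables held 0 to 13 calls each on the whole of chromosome 13, so that Jarid2 was not analysed for methylation. The second Mtf2 start, without a peak, had 7 of 7 (100%) and 9 of 13 (69.2%) methylated in ysE, and the first 7 of 24 (29.2%) and 1 of 9 (11.1%). The median over the member starts was 33.8% ± 16.6 (SD, n = 2) for ysE, 34.7% ± 8.61 for liver and 38.8% ± 17.1 for EBs. Within 500 bases it was 37.6%, 20.0% and 15.5%, so that EBs no longer lay above liver. Few starts had at least 5 reads in that window, in liver FxC only those of Mtf2 and Bmi1. They were not the same starts in each library, so that these medians compare different genes. Over all starts of the genome it was 42.9% and 40.0% (CxF, FxC) for ysE, 60.0% and 62.5% for liver, and 75.0% and 68.8% for EBs. At the first Mtf2 start the EBs had 5 of 9 (55.6%) and 5 of 15 (33.3%) methylated, above both ysE libraries and above 1 liver library with 0 of 13 (which allows up to 23.1%). Within 500 bases they did not lie above ysE, where 1 library had 6 of 17 (35.3%) against 1 of 7 (14.3%) in 1 EB library. In EBs the Ring1 start had 7 of 49 (14.3%, interval 7.10 to 26.7) and 8 of 12 reads (66.7%, 39.1 to 86.2) methylated, and in ysE 13 of 29 (44.8%) and 4 of 19 (21.1%). Within 500 bases the first EB library had 1 of 37 (2.7%), and the other EB and both ysE libraries had no reads. At Bmi1 liver had 17 of 35 (48.6%, 33.0 to 64.4) and 10 of 36 (27.8%, 15.8 to 44.0), 1 EB library 9 of 24 (37.5%, 21.2 to 57.3) and 1 ysE library 2 of 12 (16.7%, 4.70 to 44.8). Within 500 bases the order of these EB and ysE libraries turned, with 3 of 11 (27.3%) and 2 of 5 (40.0%). At Cbx2 EBs had 6 of 13 (46.2%) and 18 of 26 (69.2%), and liver 5 of 13 (38.5%) and 11 of 27 (40.7%). Within 500 bases the second EB library had 0 of 8 and the second liver library 2 of 4, so that their order turned. Phf1 had 21 of 41 (51.2%) and 4 of 10 in ysE and 14 of 21 (66.7%) in 1 liver library, and Cbx8 0 of 13 (allowing up to 23.1%) and 7 of 14 in liver. With the 1 kb window the member medians of the tissues differed by less than the spread between their libraries. Within 500 bases this did not hold, but there each library median rests on few and partly different starts.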

How the data were processed

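RNA-seq reads were aligned to mm10 by the authors with GSNAP (version 2012-12-12), who deposited counts per RefSeq transcript, not normalized, and RPKM values for the same transcripts. Which reads the RPKM were scaled to is not given in the sources used here. For bisulfite data the authors deposited the percent of methylated reads at each CpG and the number of reads behind it as counts. H3K4me3 peaks were deposited with the score of MACS 1.4.2 (a log-scaled p-value), called against input. Columns of samples outside the series numbered 0.

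Counts were fitted with edgeR 4.0.16 (R 4.3.3) in 1 model of 5 groups over 11 libraries, with TMM, filterByExpr and Benjamini-Hochberg adjustment over 24858 transcripts. EB days and clones were fitted on the 4 EB libraries alone (22452 transcripts). Each gene stands by its transcript of highest mean count. DESeq2 1.42.0, limma 3.58.1 on log2(RPKM + 1) and other settings were alternatives, and the limma one was chosen after the data had been seen. The steps were tested on simulated data. The single E12.5 ysE library is assumed to vary like the other groups. EB days are paired by clone, being the same cell line (correlation of deviations 0.638). A clone term in the fit of EB days left 0 transcripts called, as without it. Comparisons of EBs with tissues count the 4 EB libraries as independent, although each clone was sampled on both days. Their SE and p-values can therefore be too small. Libraries A and B are taken as replicates, since nothing says whether their material was separate beyond the litters.

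Methylated reads were summed over CpGs within 1 kb of a start with at least 5 reads. Promoters came from RefSeq (GRCm38.p6), where 9 of 10 members matched. Repeat and exon-part tables were not used here. Members and gene lists were chosen with earlier results of these data known. Named genes were all 10 members and, from the lists, called genes among the 3 of largest change in each direction, with Ezh2 and Rnf2 added after their values were seen. One gene of the lists is not reported here and enters none of their counts or shares.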

Additional observations from a re-analysis of the deposited data

Results flagged for a closer look

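Over the 4 cystic EB libraries, 3 values were flagged because 1 library lay far from the other 3, with a gap to its nearest neighbour above Dixon's critical share of the group's range for 4 samples. All 3 concern library d15 A and rest on the same gene. Phf19 stood there at 2.175 RPKM (gap 0.856 of the range), its share of the 3 Polycomb-like genes at 9.241% (0.831) and that of Mtf2 at 85.75% (0.841). Chance flags about 1 in 20 groups, and 26 were examined.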

How the results depend on the processing

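Of the 27 member calls in 9 comparisons, 10 held in each fit that left out 1 library and under each other setting: Jarid2 in EBs over E9.25 ysE and over mesoderm, Cbx7 in EBs against E9.25 ysE and liver, in E9.25 ysE over mesoderm and in liver against E12.5 ysE, Bmi1 in EBs against E9.25 ysE, Cbx8 in EBs against E12.5 ysE, and Phf19 and Kdm2b in liver over E12.5 ysE. Those that involve E12.5 ysE rest on its 1 library, which no fit of these comparisons could leave out. They were also tried under fewer settings, none of them within 1 protocol. No called direction turned. At FDR 1% the share of all transcripts called was not taken, so the member counts there stand without it. Members called there fell to 1 for EBs against E12.5 ysE, liver and mesoderm each, 2 for liver against E12.5 ysE and 0 between clones. With only the groups compared in the fit they were 4 against E9.25 ysE (without Cbx8, adjusted p = 0.0606, and Kdm2b, 0.0742), 1 against E12.5 ysE, 1 against liver (without Mtf2), 3 against mesoderm (without Phf19 and Bmi1), 3 for E9.25 ysE against mesoderm and 5 between ysE stages, beside 46.1%, 27.5%, 37.6%, 23.0%, 60.3% and 50.2% of all transcripts in those fits, and the cause was not tested. ScriptSeq libraries alone gave 1 for EBs against liver (44.0%). Between clones DESeq2 gave 3 (24.6%) and a day term 2 (18.0%). Limma on log2(RPKM + 1), chosen after seeing the data, gave 4 against liver (46.3% of transcripts) and 0 between clones. Leaving out EB d15 A gave 8 members against E9.25 ysE, 6 against mesoderm and 3 against liver, beside 50.4%, 29.2% and 48.5% of transcripts. Fits that left out an EB library called 46.5% to 52.3% of all transcripts against E9.25 ysE. Those shares were 24.4% to 31.6% against mesoderm and 41.4% to 48.5% against liver. Shares and member counts against E9.25 ysE, mesoderm and liver were both lowest where a library of that tissue was left out. For liver against E12.5 ysE both were lowest where a liver library was left out. The replicate block left the counts at 6 against E9.25 ysE, 2 against liver and 5 against mesoderm (52.2%, 46.7% and 32.1% of transcripts). It left 1 for E9.25 ysE against mesoderm (32.2%) and 0 between EB days (0%), and changed no call. Letters A and B pair no tissues (correlation of deviations -0.0859, -0.045 and 0.174). RLE factors moved the median of all transcripts between ysE stages from -0.20 to -0.04 and the share of higher calls from 46% to 58.6%. DESeq2 moved that share from 63% to 52.3% between clones. Over all transcripts DESeq2 called 4018 against 2106 between ysE stages and 5516 against 2815 between clones, and fits of only the groups compared called 6344 against 9932 (EBs and E12.5 ysE), 13160 against 7613 (E9.25 ysE and mesoderm) and 10559 against 2106 (ysE stages). Leaving out 1 library moved these totals too. They fell between ysE stages without either E9.25 library, and for EBs against mesoderm without either mesoderm library. Between clones they fell without any 1 of the EB libraries. Methylation medians within 500 bases were 15.5% in EBs and 20.0% in liver, over few and partly different starts. The end of the gene span as start, chosen after seeing the data, moved the medians of the 1 kb window by less than the spread between libraries. Low depth limits all methylation values.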

Other observations

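Over the gene bodies, outside 1 kb of the starts, Kdm2b had the most reads (567 to 1098 per library), of which 72.3% to 82.1% were methylated in the 6 libraries. Cbx8 had the lowest methylation in its body in EBs, with 6 of 19 reads (31.6%) and 9 of 27 (33.3%), against 8 of 15 (53.3%) and 5 of 14 (35.7%) in liver and 10 of 19 (52.6%) and 6 of 11 (54.5%) in ysE.

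Scml4, which encodes a protein of the sex-comb-on-midleg family, had 1.48 to 1.95 RPKM in the 3 ysE libraries and 0.022 to 0.200 in all others. Bcorl1, which encodes a corepressor related to the BCOR subunit of the KDM2B complex, had 3.53 to 5.07 RPKM in liver, 0.913 to 1.24 in EBs, 0.432 to 0.522 in mesoderm and 0.092 to 0.136 in ysE, and was lower in EBs than in liver (-2.38, SE 0.24, adjusted p = 0.000107 by edgeR).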
